A study of Homo sapiens with 8 samples.

Results

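The C/D box small nucleolar RNAs (snoRNAs) described here are 149 of the 2962 small RNA features counted in HEK293 cells. They were chosen by name and by raw counts: rows named SNORD with at least 80 raw counts summed over the 8 libraries, leaving out by number the pre-rRNA processing snoRNAs, the imprinted clusters and the snoRNAs of the GAS5, SNHG1 and RPL13A host genes. This left out 45 rows, of which 20 were processing snoRNAs, 13 from GAS5, 8 from SNHG1 and 4 from RPL13A, and 0 from an imprinted cluster. No row was named snoU, and 11 further SNORD rows of the 205 fell under the threshold. Just inside it lay SNORD124 with 95 counts and SNORD173 with 96, and just outside it SNORD73B with 76 and SNORD23 with 70. The counts that chose the members are given as a description of them and support no comparison.

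HEK293 is an established human embryonic kidney line. In 4 libraries the cells had been transfected, by Lipofectamine RNAiMAX and at 50 nM, with a scramble control mimic, and in the other 4 with a synthetic copy of a tRNA-derived RNA (tDR), the 3′ fragment of tRNA-Asp-GTC. Cells of both groups were collected 48 h after transfection, and the labels name no other treatment. RNA was extracted with TRIzol and made into libraries by OTTR-seq, whose reverse transcriptase joins adapters to each RNA as it is copied. The labels number 4 replicates in each group but do not say whether they were separate cultures, and the p-values below cover only the spread among these libraries, technical or otherwise.

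C/D box snoRNAs are short nucleolar RNAs that guide 2′-O-methylation of other RNAs. A C box near the 5′ end and a D box near the 3′ end bind the proteins fibrillarin, NOP56, NOP58 and SNU13, and a stretch just before the D box (or an inner D′ box) pairs with the target, which is methylated opposite the fifth base before the box. Most human C/D snoRNAs lie in introns of genes for ribosomal proteins, translation factors or non-coding RNAs and are trimmed out of the spliced intron. Their usual targets are the 18S, 28S and 5.8S rRNAs of the ribosome and the U6 RNA of the spliceosome, while orphan snoRNAs have no such target known.

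The label was checked on the sequences. Of the 149 rows, 126 were placed on GRCh38, 123 by RefSeq and 3 by the GENCODE gene name, and 114 had a sequence. Within these, 71 carried TGATGA in the first 20 bases and 39 more carried GATGA or TGATG there, while 111 carried CTGA in the last 20 bases. Both boxes, in the wider form of the C box, stood in 108 of 114 (94.7%), and in 0 of 147 annotated H/ACA box snoRNA genes searched in the same windows. SNORD50A and SNORD138 are among the 108 by construction. Their sequences were read from host transcripts and kept only because both boxes were found. Searches were on the RNA strand only. Lengths ran from 63 to 237 bases with a median of 78. Of the 127 distinct read sets, 92 have a rRNA or U6 target in the lists used here, 9 are orphans and 26 are on no list. The name methylation guide thus rests on a listed target for most of them and not for all. Absence from these lists, written from general knowledge, does not show that a snoRNA guides no methylation.

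The sequences below are those of the 3 most alike guides among the most abundant members, SNORD58C, SNORD58A and SNORD58B, and of the 4 members with the lowest unadjusted p-values in the comparison or of interest as a reference RNA. Capitals mark the C box at the left and the D box at the right. The coordinates are those of RefSeq on GRCh38. SNORD58C (chr18:49489245-49489308), SNORD58A (chr18:49491283-49491347) and SNORD58B (chr18:49491664-49491729), all on the minus strand, lie in the RPL17 gene. SNORD50A (chr6:85677294-85677368, minus strand) comes from SNHG5, a non-coding host gene, and its sequence was read from a transcript of that gene. SNORD102 (chr13:27255064-27255135, plus strand) lies in an intron of RPL21. SNORD65 (chr17:16441226-16441298, plus strand) overlaps an exon of the non-coding SNHG29, and SNORD48 (chr6:31835263-31835326, plus strand) overlaps an exon of SNHG32.
SNORD58C: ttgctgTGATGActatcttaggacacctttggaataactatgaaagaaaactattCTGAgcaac
SNORD58A: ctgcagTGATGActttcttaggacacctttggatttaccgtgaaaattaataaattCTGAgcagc
SNORD58B: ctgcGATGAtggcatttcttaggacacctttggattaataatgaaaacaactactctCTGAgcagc
SNORD50A: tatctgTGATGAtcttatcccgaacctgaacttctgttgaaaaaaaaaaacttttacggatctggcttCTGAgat
SNORD102: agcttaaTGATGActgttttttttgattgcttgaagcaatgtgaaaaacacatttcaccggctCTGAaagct
SNORD65: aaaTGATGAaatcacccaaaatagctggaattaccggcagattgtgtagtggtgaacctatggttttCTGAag
SNORD48: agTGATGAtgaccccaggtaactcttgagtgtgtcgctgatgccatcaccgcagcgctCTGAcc
The pairs among the 3 SNORD58 RNAs were 78.8% to 79.1% identical.

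For guides to U6 and 5.8S the target itself could be set against the snoRNA. Capitals now mark a stretch of at least 8 bases that pairs exactly, without G-U pairs, with the target and ends 0 to 2 bases before a CTGA. Of the 6 U6 guides, 4 had such a stretch against the annotated RNU6-1 transcript, and of both 5.8S guides 1 had one against RNA5-8SN2. The fifth base before the box lay opposite U6 position 47 for SNORD7, 53 for SNORD8, 77 for SNORD10 and 60 for SNORD67, and opposite position 74 of 5.8S for SNORD96A. SNORD9, SNORD94 and SNORD71 had no stretch under these settings, which says only that these letters were not found. In SNORD8 1 base stood between the stretch and the inner box.
SNORD7: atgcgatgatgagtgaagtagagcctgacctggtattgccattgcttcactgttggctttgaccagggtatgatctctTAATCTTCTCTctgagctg
U6 site of SNORD7: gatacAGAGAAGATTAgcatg
SNORD8: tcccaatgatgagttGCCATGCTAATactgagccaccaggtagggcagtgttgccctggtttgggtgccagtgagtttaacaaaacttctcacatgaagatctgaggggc
U6 site of SNORD8: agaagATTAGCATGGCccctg
SNORD10: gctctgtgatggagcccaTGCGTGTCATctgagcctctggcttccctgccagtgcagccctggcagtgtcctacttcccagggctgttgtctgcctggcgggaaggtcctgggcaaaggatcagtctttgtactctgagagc
U6 site of SNORD10: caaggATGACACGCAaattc
SNORD67: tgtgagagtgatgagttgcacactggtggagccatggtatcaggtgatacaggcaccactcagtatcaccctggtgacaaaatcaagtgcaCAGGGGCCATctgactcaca
U6 site of SNORD67: ttagcATGGCCCCTGcgcaa
SNORD96A: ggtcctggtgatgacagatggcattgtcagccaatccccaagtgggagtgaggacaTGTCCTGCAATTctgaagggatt
5.8S site of SNORD96A: atgtgAATTGCAGGACAcattg
Stretches on U6 covered positions 43 to 53, 50 to 60, 73 to 82 and 56 to 65, so that of SNORD8 overlaps those of SNORD7 and SNORD67. The stretch of SNORD96A was 12 bases long, against 10 or 11 for the U6 guides.

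Library totals ran from 4016295 to 10246336 counts, and the members, with reads that stand in several rows counted once, took 0.474% to 0.654% of the scramble libraries and 0.509% to 0.651% of the tDR libraries. The 2 rows that count the scramble sequence itself held 0.353% to 0.565% of the scramble libraries and 0.000749% to 0.00389% of the tDR libraries, which fits the labels in 8 of 8. Of 13 microRNAs fixed as markers of other cell types, 6 had a row. Their summed level was 36.9 to 71.1 CPM, a count scaled to a common library size, in scramble and 35.0 to 74.1 in tDR libraries, mostly the neural hsa-miR-9-5p, while the muscle microRNAs hsa-miR-1-3p and hsa-miR-133a-3p, the myeloid hsa-miR-223-3p and the neural hsa-miR-124-3p reached 0 in some library. The endothelial hsa-miR-126-3p was counted in every library, at 27 to 64 counts or 3.52 to 9.26 CPM. In bulk RNA, fewer cells of a type and less RNA per cell cannot be told apart.

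Several rows count the same reads. Rows that lay within 10% or 3 counts of each other in each library were taken as 1 read set, which left 127 sets: SNORD117 stood in 8 rows, SNORD84 in 7, SNORD52 in 5, the copies of SNORD48 in 4, and SNORD103A with SNORD103B and SNORD62A with SNORD62B in 2 each. The sequences of SNORD62A and SNORD62B are 100% identical, so their reads cannot be split. Levels by target and host below count each read set once. Counts and medians over the 148 members tested are over rows, with the value over read sets beside them.

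In the scramble libraries the snoRNAs spanned a 128-fold range. The mean CPM, scaled by trimmed means (TMM), ran from 1.49 for SNORD94 to 191 for SNORD58C, with a median of 28.4, and the 10 most abundant sets held 26.1% of the summed level. To compare genes, CPM was divided by the annotated length, which was known for 113 sets: the median was 38.4 CPM per 100 bases. Where each RNA gives 1 read whatever its length, this division places long snoRNAs too low, here and in every level per 100 bases below. SNORD15B, of 146 bases, held 84.2 CPM but ranked 42 per 100 bases. Per 100 bases SNORD58C led at 299, followed by SNORD58A at 223, SNORD5 at 196, SNORD42B at 191, SNORD58B at 188, SNORD83A at 183, SNORD2 at 182, SNORD12B at 156 and SNORD82 at 148. All 14 pairs of neighbours among the 15 highest overlapped in range over the scramble libraries, a range that includes shifts shared by both snoRNAs of a pair. Within libraries, SNORD58C stood above SNORD58A, and SNORD58A above SNORD5, in 4 of 4. For the other pairs the order held in 2 or 3 of 4. Length and level were weakly and inversely related (Spearman's rho -0.21 over 113 sets, which share libraries and depth).

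Ranked by target, the guides to U6 had the lowest median level. The median level per 100 bases was 60.9 CPM for 28 guides to 18S rRNA, 37.6 for 47 guides to 28S rRNA, 73.0 for 4 that guide both, 5.18 for 6 U6 guides, 17.3 for 9 orphans and 33.0 for 17 on no list. Not divided by length, the median scramble CPM was 49.6 for 31 18S guides, 32.4 for 49 28S guides and 53.4 for the 4 that guide both. It was 5.15 for the 6 U6 guides, 43.1 for the 8 orphans tested and 22.8 for 26 on no list. The ranges per 100 bases overlapped widely: 18S guides ran from 11.3 for SNORD98 to 191 for SNORD42B, 28S guides from 2.00 for SNORD91B to 299 for SNORD58C, and U6 guides from 1.09 for SNORD94 to 40.9 for SNORD10. The value of SNORD91B rests on an annotated length of 222 bases, with no C or D box found near its ends. By CPM not divided by length, SNORD49B was the lowest 28S guide, at 2.82 in scramble libraries. Both 5.8S guides were apart, with SNORD71 at 12.0 and SNORD96A at 123. Length was taken from the annotation, so a guide counted through a shorter fragment would be placed too low, and the lengths of the reads were not analysed here.

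**Figure D1:**
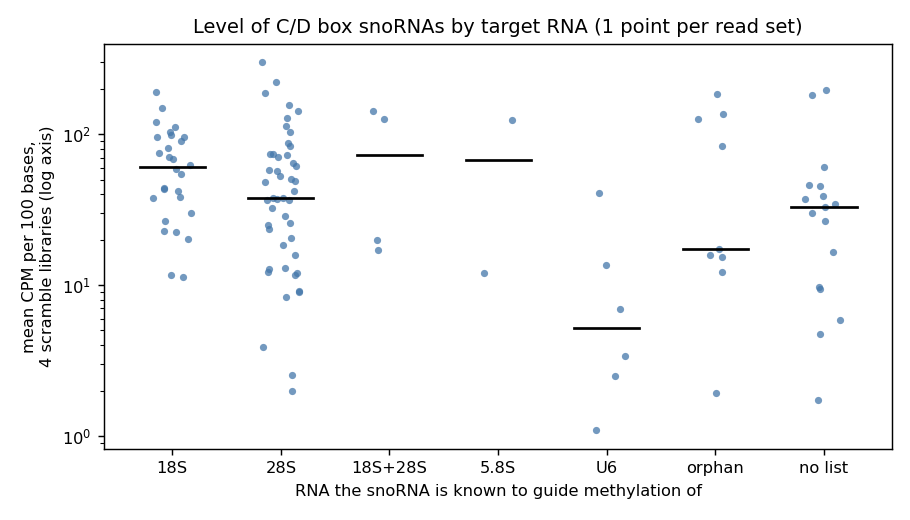
Mean level of each C/D box snoRNA read set in the 4 scramble libraries, in CPM per 100 bases on a log axis, grouped by the RNA it is known to methylate; each point is 1 read set and each bar the median of its group. The U6 guides have the lowest median, 5.18, and spread from 1.09 to 40.9, while guides to 18S and 28S rRNA spread from 2.00 to 299. The 2.00 is SNORD91B, whose annotated length of 222 bases has no C or D box found near its ends.

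The tDR mimic left no C/D snoRNA past the threshold. Of 1761 features that passed the filter on low counts, edgeR's quasi-likelihood test called 118 (6.70%) at a Benjamini-Hochberg adjusted p below 0.05, 94 higher (5.34%) and 24 lower (1.36%) with the tDR. Of the 148 members tested, 0 were called, 0 by DESeq2's Wald test and 0 by limma-voom. An unadjusted p below 0.05 was reached by 3 of them with edgeR, 3 with DESeq2 and 5 with limma-voom, where 21.5% of all features reached it with edgeR. SNORD86, at 101 counts, was the member left out by the filter.

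The fold changes of the members lay close to 0. On the log2 scale, tDR over scramble, the 148 rows ran from -0.49 to 0.49 with a median of 0.08, beside 0.02 for all features tested, and 96 of 148 were above 0 beside 52.2% of all features. With each read set of the members counted once, the median was 0.10 and 95 of 126 were above 0, while the values for all features are over rows. When the fit itself took each read set once, the medians were 0.16 for members and 0.11 for all features, 0.05 apart. Of the H/ACA box snoRNA rows, 96 of 127 were above 0. The side of 0 on which the members lay depends on the scaling. With total counts as library sizes the members' median over rows was -0.07 and 47 of 148 were above 0, and with scaling on microRNAs alone it was 0.41 and 142 of 148. The median of all features moved with it, to -0.13 and 0.36, so that the members' median stood 0.06, 0.05 and 0.05 above that of all features under the TMM, total-count and microRNA scalings. The groups did not overlap for 2 members that were higher with the tDR, SNORD102 and SNORD103C, beside 7.78% of all features, and for 0 that were lower, beside 5.51%. Counts above 0 in the groups that follow are under TMM scaling and move with it.

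The intervals bound how large a change could have been missed. The 95% interval of the log2 fold change lay within -1 and 1 for 137 of the 148 rows and within -0.5 and 0.5 for 78, and its median half-width was 0.37. It reached beyond -1 or 1 for 11 rows, among them SNORD94, SNORD49B, SNORD53 and the 4 copies of SNORD48, which averaged 11.9 to 59 counts a library. For these a 2-fold change was not excluded.

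**Figure D2:**
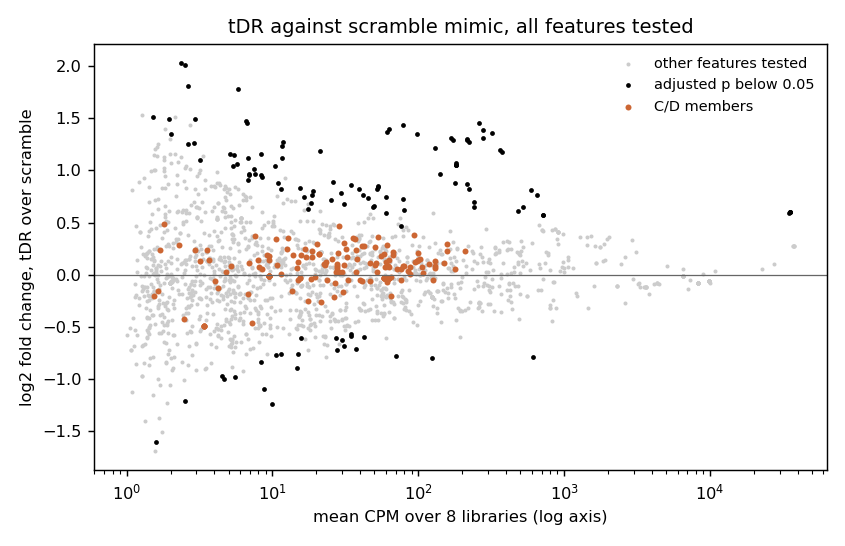
log2 fold change of every feature tested, tDR over scramble, against its mean CPM over 8 libraries on a log axis; orange points are the C/D box snoRNAs, black points other features with an adjusted p below 0.05. The orange points stay between -0.49 and 0.49, and 0 of 148 passed the threshold.

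Among guides to 18S rRNA, the RNA of the small ribosomal subunit, 0 of 31 were called, 23 had a log2 fold change above 0, and the median was 0.09. SNORD65 stood at 64.5, 95.3, 102 and 61.7 CPM in scramble libraries 1 to 4 and at 101, 98.4, 118 and 104 in the tDR libraries, in the same order. Its tDR values were less spread than the scramble values, and the groups overlapped because scramble library 3 exceeded tDR libraries 1 and 2. The log2 fold change was 0.38 (SE 0.17), with an unadjusted edgeR p of 0.0357 and an adjusted p of 0.200.

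SNORD103C, another 18S guide, had 54.5, 53.2, 58.4 and 52.4 CPM in the scramble libraries and 59.6, 62.7, 63.2 and 64.2 in the tDR libraries. All 4 tDR values lay above all 4 scramble values, by a small step: the log2 fold change was 0.19 (edgeR adjusted p = 0.428). SNORD103A and SNORD103B, counted from the same reads as each other, showed no such order, with scramble values of 13.4 to 19.6 and tDR values of 9.63 to 19.1 CPM.

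SNORD59A had 23.0, 40.1, 34.8 and 27.9 CPM in scramble and 44.3, 40.8, 39.8 and 35.3 in tDR libraries (log2 fold change 0.35, edgeR adjusted p = 0.258). Scramble library 2 lay among the tDR values. SNORD42B, the 18S guide with the highest level, was nearly level: 129, 123, 133 and 128 CPM against 126, 128, 127 and 115, a log2 fold change of -0.05 with a 95% interval of -0.33 to 0.23. SNORD4B, from the same host gene RPL23A, had 14.9, 22.5, 21.3 and 17.4 CPM against 16.1, 16.1, 14.6 and 17.0 (log2 fold change -0.25, edgeR adjusted p = 0.477), and its groups overlapped. SNORD45A showed library differences within both groups, at 63.6, 93.9, 96.8 and 93.7 CPM in scramble and 112, 99.0, 66.5 and 70.5 in tDR libraries, and its means were 87.0 ± 15.6 and 87.1 ± 22.2 (SD, n = 4 each).

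The relatives of SNORD45A from the same host, RABGGTB, had a like order of libraries. SNORD45C held 51.2, 88.1, 89.2 and 81.7 CPM in scramble and 106, 82.1, 61.2 and 48.6 in tDR libraries, and SNORD45B held 18.9, 34.2, 29.9 and 25.8 against 39.1, 34.6, 21.8 and 18.2. All 3 were lowest in library 1 of the scramble group, highest in library 1 of the tDR group, and low in tDR libraries 3 and 4. SNORD45A and SNORD45C are 84.5% identical, and the counting of reads they could share is not known. Their log2 fold changes were 0.002, -0.05 and 0.06 for SNORD45A, SNORD45C and SNORD45B, and 0 of 3 were called. Among other 18S guides, SNORD82 in an intron of NCL, the nucleolin gene, had 95.8, 112, 105 and 101 CPM against 119, 126, 99.1 and 91.2, and SNORD16 in RPL4 had 79.6, 104, 101 and 92.7 against 105, 98.4, 109 and 103. The groups overlapped for both.

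Among guides to 28S rRNA, the RNA of the large subunit, 0 of 49 were called, 38 were above 0, and the median log2 fold change was 0.13. SNORD50A held 17.0, 29.01, 31.4 and 19.7 CPM in scramble libraries and 37.8, 28.8, 34.0 and 32.5 in tDR libraries. Scramble libraries 1 and 4 were low, and libraries 2 and 3 reached the lowest tDR value. Its means were 24.3 ± 7.01 and 33.3 ± 3.69 (SD, n = 4 each), and the log2 fold change was 0.47 (SE 0.20, 95% interval 0.06 to 0.87, edgeR unadjusted p = 0.0275, adjusted p = 0.172). It was the member with the lowest unadjusted p. Under TMM factors from microRNAs alone it was the 1 member called, at 0.83 (SE 0.25, edgeR adjusted p = 0.0441), where 8.92% of all features tested were called higher. SNORD50B, from the same host SNHG5 and 71.8% identical to it, had means of 26.3 and 30.3 CPM and a log2 fold change of 0.21.

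SNORD102 was the 28S guide whose groups did not overlap. It had 40.0, 53.5, 53.9 and 38.8 CPM in the scramble libraries and 63.9, 54.9, 60.7 and 59.6 in the tDR libraries, so the nearest values of the groups were 53.9 and 54.9. The log2 fold change was 0.37 (SE 0.15, edgeR unadjusted p = 0.0279, adjusted p = 0.173).

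SNORD48 is widely used as a reference RNA in PCR assays of small RNAs. It had 10.8, 7.49, 7.86 and 7.32 CPM in scramble and 4.23, 8.73, 6.54 and 4.89 in tDR libraries. Scramble library 1 was high and tDR libraries 1 and 4 were low, and tDR library 2 exceeded 3 of the scramble libraries. The means were 8.37 ± 1.64 and 6.10 ± 2.01 (SD, n = 4 each), with a log2 fold change of -0.46 (95% interval -0.996 to 0.077, edgeR adjusted p = 0.313). The set of 4 copy rows, of which SNORD48_1 is 1, had means of 3.96 and 2.84 CPM and the lowest log2 fold change of any member, -0.49. Its counts lay below those of SNORD48 in every library. Whether they are part of the same reads is not known, so this is not taken as a separate result. SNORD52, from the same host SNHG32, did not share the pattern of SNORD48, at 54.2, 57.2, 59.3 and 65.1 CPM against 71.6, 63.6, 52.6 and 43.4 (log2 fold change -0.03). The difference between the snoRNAs was not tested.

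The 28S guides with the highest levels per 100 bases are the SNORD58 RNAs of RPL17. SNORD58C had 150, 227, 218 and 171 CPM in scramble and 248, 232, 202 and 212 in tDR libraries. The values overlapped, with scramble libraries 1 and 4 lowest, and the log2 fold change was 0.22 (SE 0.16, edgeR adjusted p = 0.455). SNORD58A and SNORD58B gave 0.22 and 0.13. SNORD12B of ZFAS1 had 126, 157, 164 and 120 CPM against 170, 146, 194 and 185 (log2 fold change 0.29, edgeR adjusted p = 0.278), again with overlap. SNORD24 of RPL7A was nearly level, at 112, 112, 107 and 98.2 CPM against 112, 114, 104 and 104, and its log2 fold change of 0.02 had a 95% interval of -0.27 to 0.30. At the low end, SNORD91B had 4.19, 4.27, 4.94 and 4.35 CPM against 5.32, 2.81, 3.90 and 4.05, with a wider interval of -0.69 to 0.43.

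**Figure D3:**
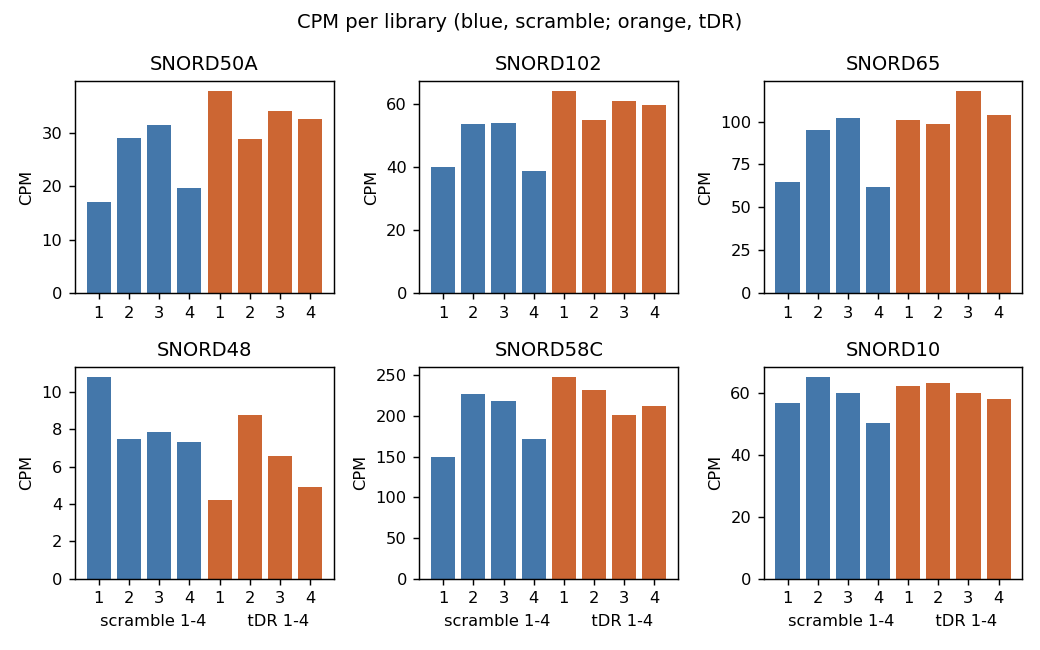
CPM of 6 members in each library, with axes from 0; blue bars are scramble libraries 1 to 4 and orange bars tDR libraries 1 to 4. In the panels of SNORD50A, SNORD102, SNORD65 and SNORD58C the bars of scramble libraries 1 and 4 are the lowest, while those of SNORD10 stay between 50.4 and 65.2.

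The RNAs that guide both rRNAs were 4, all with log2 fold changes above 0 under TMM scaling (median 0.16) and 0 called. SNORD36A had 70.5, 111, 108 and 78.9 CPM in scramble and 115, 94.6, 108 and 106 in tDR libraries, with scramble libraries 1 and 4 low. SNORD36C, from the same host RPL7A, did not show that dip: 98.3, 93.7, 95.7 and 87.0 against 115, 109, 104 and 82.0. SNORD96A, a guide to the 5.8S rRNA, had 93.0, 114, 99.9 and 82.6 CPM against 95.8, 104, 127 and 106, a log2 fold change of 0.15 with a 95% interval of -0.16 to 0.46. For SNORD71, which is also listed for 5.8S, the 8 values ran from 7.65 to 14.7 CPM and the log2 fold change was 0.09.

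Guides to U6, the catalytic RNA of the spliceosome, gave a median log2 fold change of 0.13 with 5 of 6 above 0 and 0 called. SNORD10, the most abundant of them, had 56.6, 65.2, 60.0 and 50.4 CPM in scramble and 62.3, 63.3, 60.1 and 58.1 in tDR libraries. All its tDR values lay inside the scramble range, and the 95% interval of its log2 fold change of 0.07 was -0.22 to 0.36. SNORD67 had 17.4, 16.5, 15.5 and 11.1 CPM against 14.04, 16.8, 13.5 and 13.96, and SNORD7 had 5.33, 7.11, 8.98 and 5.57 against 7.77, 7.48, 6.26 and 7.12. The groups overlapped for both. SNORD8 and SNORD9, in introns of the same gene CHD8, stayed between 2.03 and 5.45 CPM over the 8 libraries. SNORD94 had the highest fitted log2 fold change of any member, 0.49, and also one of the widest intervals, -0.47 to 1.45, since it rested on 113 counts in all.

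Of the orphan snoRNAs, 0 of 8 tested were called, 5 were above 0 and the median log2 fold change was 0.06. SNORD83A of RPL3, the gene for a large-subunit ribosomal protein, had 176, 178, 184 and 159 CPM in scramble and 176, 182, 178 and 187 in tDR libraries. With 10988 counts in all it was among the most precise members, and its log2 fold change of 0.06 had a 95% interval of -0.23 to 0.34. SNORD86, the untested member, had 27, 10, 5 and 13 counts in scramble and 5, 12, 22 and 7 in tDR libraries. Among the sets on no target list, 0 of 26 were called and 18 were above 0. SNORD5 had 124, 163, 159 and 128 CPM against 164, 153, 137 and 165, and SNORD2 of EIF4A2 had 125, 136, 120 and 121 against 148, 163, 117 and 104. SNORD138, whose older RefSeq name is that of a microRNA (MIR3607) and which was read from a COX7C transcript, had 30.2, 26.5, 30.5 and 26.1 against 26.4, 27.1, 24.1 and 19.8 (log2 fold change -0.22, edgeR adjusted p = 0.495).

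SnoRNAs of the same host gene were present at unequal levels. A host transcript releases its intronic snoRNAs from a shared precursor, yet the level per 100 bases of the highest member exceeded that of the lowest in 8 of 8 libraries for 18 of 19 host lists, SNHG5 being the other. Which member is highest or lowest was read from the scramble means, so this order is a description. The ratio was greatest for NOP56, itself the gene of a C/D box protein: SNORD56 over SNORD86 had a median of 85.2 over the 8 libraries (range 32.1 to 142). SNORD86 is the less certain of the pair, with as few as 5 counts in a library. For well counted pairs the ratio was 10.5 (7.12 to 15.4) for SNORD101 over SNORD100 of RPS12, 8.42 (7.57 to 13.9) for SNORD83A over SNORD43 of RPL3 and 8.14 (5.90 to 9.33) for SNORD42B over SNORD4B of RPL23A. At the other end, SNORD58C over SNORD58B of RPL17 was 1.58 (1.49 to 1.88) and SNORD15B over SNORD15A of RPS3 was 1.41 (1.26 to 1.71). For SNHG5 the ratio of SNORD50B to SNORD50A had a median of 1.05 (0.828 to 1.66), above 1 in 6 of 8 libraries.

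The ratio within SNHG29 lay apart between the groups: SNORD65 over SNORD49B was 18.4 to 38.1 in the scramble libraries and 38.4 to 92.7 in the tDR libraries. The ranges just missed each other. SNORD49B had as few as 9 counts in a library, the pair is 1 of 19 examined, and the difference was not tested. For SNHG32, the log2 fold changes were -0.46 for SNORD48, -0.49 for its copy rows, which may share its reads, and -0.03 for SNORD52. The ratio of SNORD52 to SNORD48 ran from 4.80 to 16.2.

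**Figure D4:**
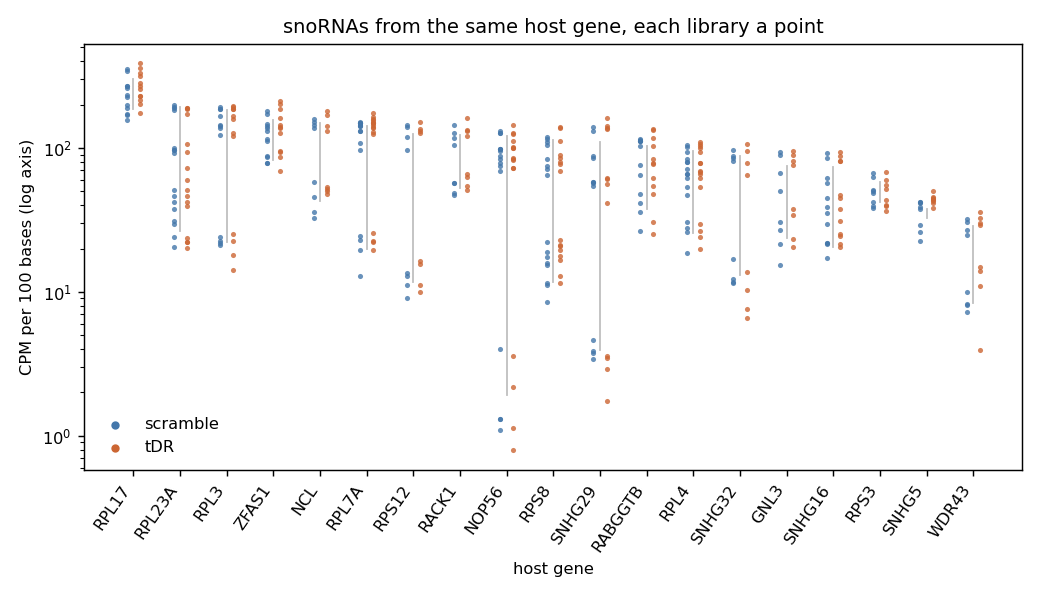
Level in CPM per 100 bases, on a log axis, of snoRNAs that share a host gene; each point is 1 snoRNA in 1 library, blue for scramble and orange for tDR, and grey lines span the members' scramble means. Of the host lists drawn, which leave out some hosts of several members, NOP56 has the widest span, with a median ratio of 85.2 between its highest and lowest member. SNHG5 has the narrowest, at 1.05.

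By kind of host, the median scramble level per 100 bases was 64.6 CPM for 33 sets from ribosomal protein genes, 37.2 for 17 from non-coding hosts and 30.0 for 63 from other coding genes. Median log2 fold changes were 0.08, 0.17 and 0.09, with 24 of 33, 15 of 17 and 47 of 62 above 0. In all, 78 of the 113 sets with a host lay in introns and 33 overlapped an annotated exon of it, where reads of the snoRNA and of the host exon cannot be told apart in these counts. Neither length nor GC content went with the fold change across sets (Spearman's rho 0.11 and -0.07 over 112 sets, which share libraries).

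The members varied together between libraries of the same group. The log2 CPM of each set minus its mean over 8 libraries had medians of -0.10, 0.06, 0.08 and -0.15 for scramble replicates 1 to 4, and of 0.13, 0.12, 0.04 and -0.10 for tDR replicates 1 to 4. Scramble libraries 1 and 4 both stood below 2 and 3 for 65 of 126 tested sets (51.6%), beside 20.3% of all features tested, 48.7% of the C/D rows left out by number, 30.7% of H/ACA box snoRNA rows and 12.2% of microRNA rows. The opposite order was found for 7 sets (5.56%), beside 15.6% of all features. This order was picked out after the values were seen, and what sets these libraries apart was not tested. SNORD50A, SNORD65, SNORD102 and SNORD58C all have it. Leaving out a low scramble library raises the scramble mean, so a lower log2 fold change follows from the order itself and is no separate result. That of SNORD50A was 0.33 without scramble library 1 and 0.36 without library 4, and that of SNORD58C was 0.12 and 0.16.

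**Figure D5:**
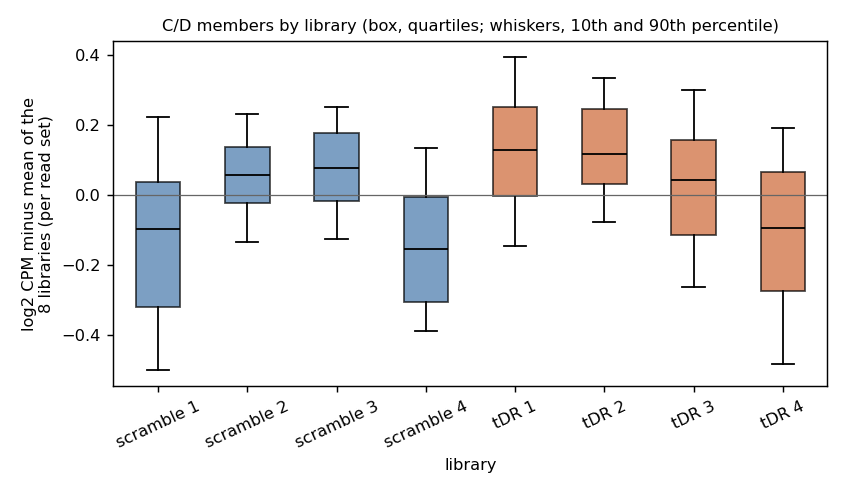
Distribution over 127 read sets of log2 CPM minus the set's mean of the 8 libraries, for each library; boxes span the quartiles with the median as a line, whiskers the 10th and 90th percentiles, blue for scramble and orange for tDR. Scramble libraries 1 and 4 and tDR library 4 have medians of -0.10, -0.15 and -0.10, below 0.

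Summed over all 149 rows, the level was 5800, 6665, 6653 and 5734 CPM over the scramble libraries, in order, and 6979, 6814, 6602 and 6047 over the tDR libraries. The means were 6213 ± 516 and 6610 ± 406 (SD, n = 4 each), a ratio of 1.06, and the groups overlapped. With each read set counted once, the means were 5426 ± 539 and 5838 ± 331 (SD, n = 4 each), a ratio of 1.08, and the groups again overlapped. The ratio was 0.960 with total counts as library sizes and 1.35 with TMM factors from microRNAs alone, so the scaling decided on which side of 1 it fell. Within groups the median coefficient of variation was 13.9% in scramble and 14.1% in tDR libraries over the 148 rows, beside 17.9% and 22.8% over all features tested and 14.1% and 18.2% over the 1110 features that averaged 50 or more counts a library.

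The other snoRNA classes gave counts of the same kind. Of the C/D rows left out by number, 0 of 39 tested were called and their median log2 fold change was 0.05. Of H/ACA box snoRNAs, which guide pseudouridylation, 0 of 127 were called with a median of 0.12, and of scaRNAs, which guide modification of spliceosomal RNAs in Cajal bodies, 0 of 24 with a median of 0.03. For microRNAs the numbers were 0 higher and 9 lower of 196 tested, with a median of -0.33. At an unadjusted edgeR p below 0.05 there were 2, 5, 2 and 59 features in these classes.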

How the data were processed

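Small RNA of HEK293 cells was counted in 4 scramble and 4 tDR libraries. The deposited raw file holds counts per feature, 1 column per library. The second file, used in 1 alternative, holds a signal that the authors made by dividing each count by a factor per library, found by comparing the deposited files. Reads were placed on hg38, per the submitters' processing notes. For aligner, counter and annotation, names were not given in the sources used here. A pair of rows for the scramble sequence holds no gene and was left out of library sizes and tests.

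Members and lists were chosen with earlier results of these data known. Target and host lists came from general knowledge. The members named are those most abundant, those of lowest p in each direction, the most and least abundant of each list and those at the count threshold; others were named after their values were seen.

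All features were fitted with edgeR 4.0.16 in R 4.3.3 (filterByExpr by group, TMM, robust quasi-likelihood test, no covariates) and p-values adjusted over 1761 features. The biological coefficient of variation was 19%. The fit was tested on simulated data. CPM is TMM-scaled. A count of 0 allows up to 3 counts, 0.293 to 0.747 CPM, for counting error only. No 2 libraries of the same group were copies: chi-square per degree of freedom was at least 15.6 in the 12 pairs within groups. Pairs across the groups were not compared. Alternatives used other scalings, filters, DESeq2 1.42.0, limma 3.58.1 (voom, and log2 of the deposited signal plus 1), a replicate block, read sets taken once, a threshold of 800 counts, and 1 library left out. Sequences and places come from RefSeq (GRCh38.p14) and GENCODE 29. Tables were made with Python 3.11.15.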

Additional observations from a re-analysis of the deposited data

Results flagged for a closer look

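In 6 of 112 groups of 4 libraries, over 56 named members, 1 library lay far from the other 3 by Dixon's 95% criterion. Chance gives about 1 in 20. SNORD42B was lowest in tDR library 4, at 114.6 CPM against 126 to 128 in the other tDR libraries. SNORD56 was lowest in scramble library 4, at 68.1 CPM against 90.5 to 93.0. SNORD45A was lowest in scramble library 1, at 63.6 CPM against 93.7 to 96.8. SNORD1C was lowest in scramble library 4, at 13.4 CPM against 16.7 to 17.1. SNORD48 was highest in scramble library 1, at 10.8 CPM against 7.32 to 7.86. SNORD86 was highest in scramble library 1, at 3.43 CPM against 0.948 to 1.13, which rests on 27 counts against 5 to 13.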

How the results depend on the processing

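A pair of scalings moved the results. With total counts as library sizes the members' median log2 fold change was -0.074 and their summed ratio 0.960. With TMM factors from microRNAs alone the median was 0.41, the ratio 1.35, and 1 member (SNORD50A, edgeR adjusted p = 0.0441) was called. Under every other alternative run 0 members were called, and the medians were 0.02 to 0.16. Leaving out 1 library at a time gave 0 calls, medians of 0.03 to 0.13 and ratios of 1.02 to 1.10. Of 986 alternative values for 55 named members, 1 was called and 72 had the other sign without a call. The intervals of 11 rows pass a log2 of 1; SNORD53 averaged 59 counts a library and the others 11.9 to 27.25.

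With the replicate number as a block, 0 members were called and their median was 0.07. Over all features 39 were called, beside 118 without the block, 191 by DESeq2's Wald test, 185 by limma on the deposited signal, and 65 and 70 without scramble library 2 or 3. Deviations of same-numbered libraries correlated at -0.34, -0.18, -0.26 and -0.12, so same-numbered libraries did not deviate alike. Whether they were cultured or prepared together is not stated, and these correlations cannot decide it.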
